A study of Mus musculus with 6 samples.

Results

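The transcripts that encode the cytosolic translation initiation factors (eIF) and elongation factors (eEF) were followed in 6 libraries of sorted mouse haematopoietic stem cells (HSCs). Members were chosen by gene symbol, as every gene named Eif1 to Eif6 or Eef1 to Eef2 with its subunits, regulators and modifying enzymes. The kinases of eIF2, the Y-linked Eif2s3y and named pseudogenes were left out. That gave 63 of the 19978 genes in the deposited table. The study compared HSCs from the bone marrow of wild-type (WT) mice and of mice labelled Piezo1 cKO, a conditional knockout of the gene for a mechanically gated cation channel. Each genotype had 3 libraries, and each library was made from 100 sorted cells with a low-input, full-length cDNA method. The sources used here do not give the Cre driver, the age and sex of the mice, or whether each library came from its own mouse. The p-values therefore measure the spread between these libraries, which may be technical.

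Initiation begins when eIF2 brings the initiator tRNA to the small ribosomal subunit, with eIF1, eIF1A, eIF3 and eIF5 bound, while the eIF4 proteins bind the mRNA cap and unwind its leader. eEF1A then delivers each aminoacyl-tRNA, the eEF1B subunits recharge eEF1A with GTP, and eEF2 moves the ribosome along the message. HSCs are known for a low rate of protein synthesis compared with the progenitors they give rise to, and the eIF4E-binding proteins and the phosphorylation of eIF2 are established points of control. RNA was measured here, not protein or the rate of translation.

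Promoter sequence gives a view of these genes that does not depend on the expression values. RefSeq sequence on GRCm38.p6, from 250 bases before to 50 bases after each annotated start, matched 49 of the 63 genes. The 14 without an entry were Eef1akmt1, Eef1akmt3, Eef1d, Eef1g, Eif1a, Eif2b3, Eif3e, Eif3i, Eif3j2, Eif4a3l2, Eif4e3, Eif4ebp1, Eif4g2 and Eif6. The E-box CACGTG, which reads the same on both strands and is the textbook site of Myc family proteins, was found in 14 of these 49 genes (28.6%). The same letters were found for 366 of 2869 genes with a sequence that were tested for a genotype difference (12.8%). They were found for 2187 of all 27025 genes with RefSeq start sequence (8.09%). A gene counted once if any of its start windows held the letters, so genes with several annotated starts had more windows to match. Among the 35 tested members with a sequence, 9 held it (25.7%). A match describes letters in a window and shows neither binding nor a cause. Other motifs were counted by gene in the same way, each searched on both strands. The GC box GGGCGG was present in 75.5% of members with a sequence and 68.6% of such tested genes. The ETS core CGGAAGT was in 26.5% and 17.3%, and the NRF1 site GCATGCGC in 10.2% and 6.73%. CCAAT was in 34.7% and 42.9%, and TATAAA in 8.16% and 10.3%. None of these letter strings contains another.

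Upstream windows of 7 E-box genes are shown 5′ to 3′ on the strand of the gene, with the E-box in capitals, because they run from the most widely detected factors to the least. They lie at chr10:81176561-81176620 (plus strand, Eef2), chr9:120492555-120492605 (plus, Eif1b), chr7:108934320-108934379 (plus, Eif3f), chr5:134639473-134639532 (minus, Eif4h), chr11:69672580-69672639 (minus, Eif4a1), chr3:138527177-138527236 (plus, Eif4e) and chr16:20672646-20672705 (plus, Eif4g1). The E-box begins 43 bases before the annotated start in Eef2, 24 in Eif1b, 68 in Eif3f, 96 in Eif4h and 189 in Eif4a1. The E-box shown begins 64 and 54 bases before one of several starts in Eif4e and Eif4g1. Eif4e also held an E-box 228 bases before the same start, and Eif4g1 held one after it, neither of them shown.
Eef2: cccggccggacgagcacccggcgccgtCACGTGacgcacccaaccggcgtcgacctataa
Eif1b: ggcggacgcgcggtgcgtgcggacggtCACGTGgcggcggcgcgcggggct
Eif3f: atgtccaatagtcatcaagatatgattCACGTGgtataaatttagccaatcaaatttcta
Eif4h: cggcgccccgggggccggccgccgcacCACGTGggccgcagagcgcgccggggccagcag
Eif4a1: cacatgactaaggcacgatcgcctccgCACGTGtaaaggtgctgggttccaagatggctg
Eif4e: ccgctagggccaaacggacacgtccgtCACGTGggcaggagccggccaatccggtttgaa
Eif4g1: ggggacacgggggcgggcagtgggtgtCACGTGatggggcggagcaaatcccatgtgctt
The 7 genes were picked to span the range of detection, so the spread of their levels is no result. In FPKM, the fragment count that the authors scaled by transcript length and library depth, Eef2 was at 10 or more in all 6 libraries. Eif1b, Eif3f and Eif4h reached 10 in 4 libraries, Eif4a1 in 2, Eif4e in 1 and Eif4g1 in none.

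The libraries differed in depth and in how evenly their reads were spread. Total counts ran from 3907259 to 64794532 in WT and from 31252820 to 72116120 in the libraries labelled cKO, and the 100 most counted genes of each library held 30.2% to 76.1% of counts in WT and 29.8% to 31.7% in cKO. WT 3 and WT 1 had the lowest totals and the highest of these shares. Piezo1, the targeted gene, was at 0.539, 3.97 and 1.57 FPKM in WT 1 to 3 and at 0.175, 8.81 and 0.819 in cKO 1 to 3. The groups overlapped, with the highest value in cKO 2, and the fitted difference was 1.20 ± 2.21 on the log2 scale (cKO minus WT ± SE, edgeR adjusted p = 0.843), so the level of Piezo1 RNA does not separate the libraries by their labels. The sources used here do not say whether the deleted part of the gene lies within the counted sequence.

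Markers of the sorted cells were uneven. Ly6a, which encodes the stem cell antigen Sca-1, was at 13.9 to 601 FPKM in all 6 libraries. Kit, the stem cell factor receptor, was at 59.5 in cKO 3 and at 2.53 or less in the other 5, and Slamf1, which encodes CD150, reached 10 only in WT 2 and cKO 2. Some mature granulocyte and monocyte transcripts were also present, with S100a8 at 212 to 14869 FPKM in WT and 625 to 22024 in cKO. Of 14 such markers, 7, 3 and 7 reached FPKM 10 in WT 1 to 3 and 6, 9 and 5 in cKO 1 to 3. Ly6g, Csf1r, Itgam, Mmp8 and Ccr2 stayed at 1.49 or less in every library. In bulk RNA, fewer cells of a type and less RNA per cell cannot be told apart.

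Detection of the translation factors ranged more widely within WT than within cKO. At FPKM 10 or more stood 7, 37 and 5 of the 63 genes in WT 1 to 3 and 22, 33 and 36 in cKO 1 to 3. WT 2 thus had the most, and WT 1 and WT 3 the fewest. Among the 45 members that passed the filter of the genotype test, the shares were 15.6%, 77.8% and 11.1% in WT and 46.7%, 71.1% and 73.3% in cKO. Over all 4173 tested genes they were 21.1%, 57.4% and 18.2% in WT and 34.8%, 51.9% and 53.1% in cKO. The 6 libraries stood in the same order for both, with the members above all tested genes in WT 2 and all 3 cKO libraries and below them in WT 1 and WT 3. The 63 genes together held 0.674%, 1.29% and 0.424% of all counts in WT and 2.23%, 1.19% and 1.23% in cKO, and cKO 2 and cKO 3 lay below WT 2.

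**Figure D1:**
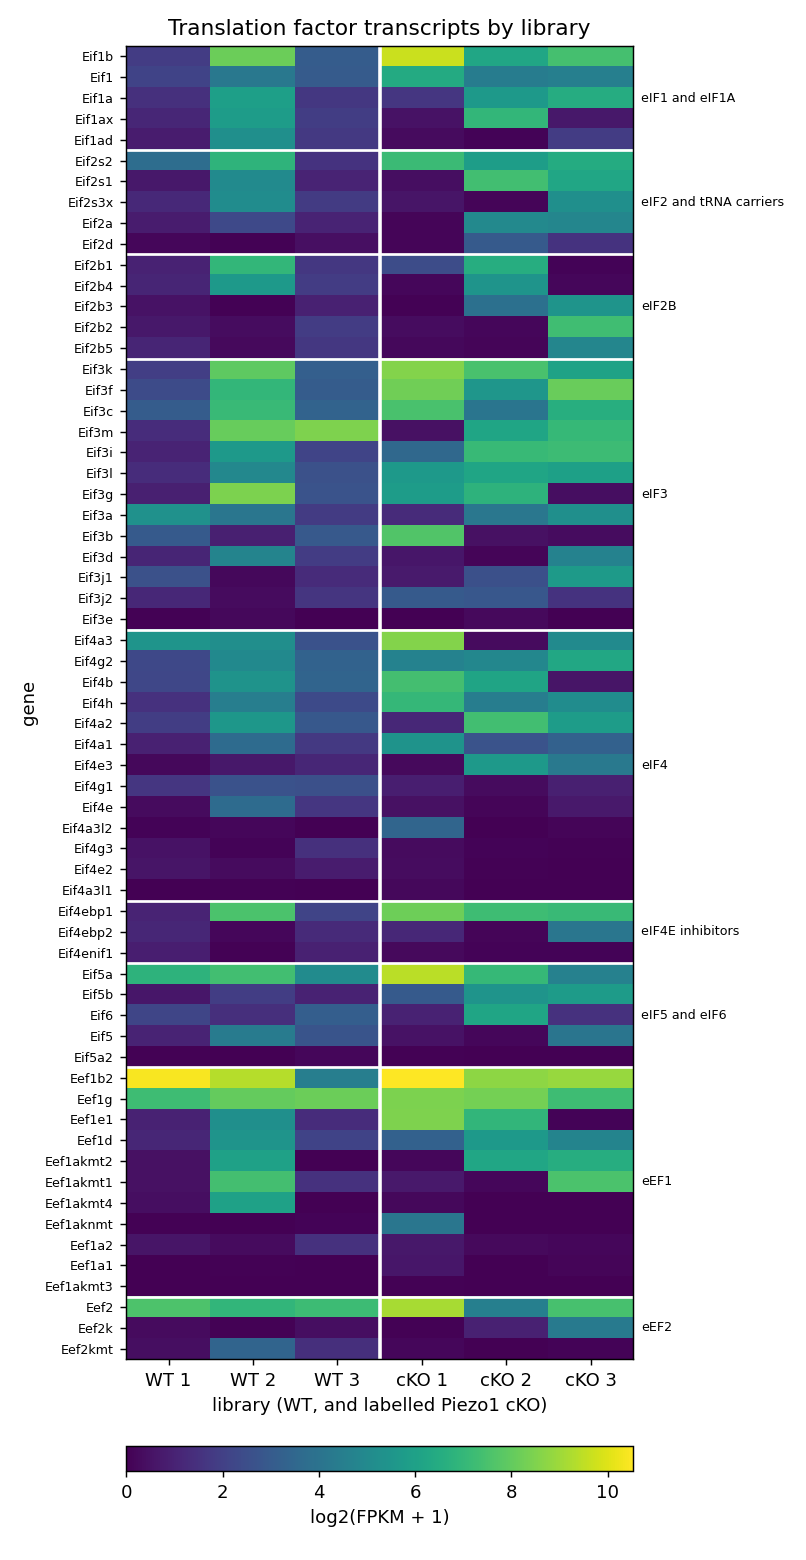
Level of each of the 63 translation factor genes (rows, grouped by role) in the 6 libraries (columns), as colour on a log2(FPKM + 1) scale. WT 1 and WT 3 are dark for most genes, with 7 and 5 genes at FPKM 10 or more, against 37 in WT 2 and 22 to 36 in the cKO libraries.

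In WT 2 and the cKO libraries the counts of the members fell into a low and a high band with few between, while in WT 1 and WT 3 most lay in the low band. Counts from 300 up to but not including 1000 were held by 7, 1 and 3 members in WT and by 5, 1 and 5 in cKO. Counts of 1000 or more were held by 7, 41 and 3 members in WT and by 24, 37 and 38 in cKO, and the rest lay under 300. WT 1 and WT 3 thus had as many members between as in the high band. The median count of those under 300 was 63, 36 and 44 in WT and 35.5, 23 and 19 in cKO, and so did not rise with the library total. Because FPKM divides by that total, a low-band count gives a higher FPKM in a shallow library. At FPKM 1 or more, 48 members stood in WT 3, the shallowest library, and 42 of them had fewer than 300 counts, while in cKO 3 there were 41 and 0. FPKM 10, not 1, is therefore used below to describe detection, and what produced the low band was not tested.

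**Figure D2:**
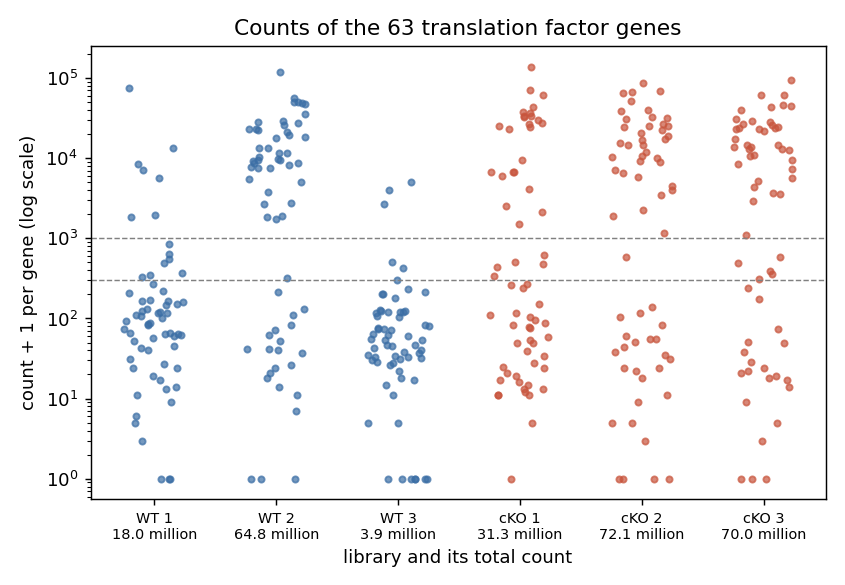
Deposited count plus 1 of each of the 63 genes (points, log axis) by library, with each library's total under its name and dashed lines at 300 and 1000. In WT 2 and the cKO libraries points gather above 1000 and below 300, with 1 to 5 members between the lines. In WT 1 and WT 3 most points lie below 300, and the lower cloud does not climb with the total.

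Only 4 members, Eef1b2, Eef1g, Eef2 and Eif5a, stood at FPKM 10 or more in all 6 libraries (6.35% of all 63, against 5.82% of tested genes). Another 14 members did so in none, 11 in 1 library, 12 in 2, 8 in 3, 13 in 4 and 1, Eif2s2, in 5. The most common pattern among detected members was WT 2 with all 3 cKO libraries. It held 10 members (15.9% of all 63, against 6.3% of tested genes), namely Eif1, Eif1b, Eif3c, Eif3f, Eif3i, Eif3k, Eif3l, Eif4ebp1, Eif4g2 and Eif4h. The 2 shares have unlike bases, since only 45 of the 63 members passed the filter that defines tested genes. These 4 and 10 members all passed it, so their shares of the 45 would be higher. Of the 44 tested members above 0 in every library, 43 had a highest library more than 10 times the lowest (97.7%, against 95.6% of such tested genes). Of the 49 members that reached FPKM 10, 18 had their highest value in cKO 1, 13 in cKO 3, 8 each in WT 2 and cKO 2, and 1 each in WT 1 and WT 3. Across the 63 genes, the Pearson correlation of log2(FPKM + 1) was 0.50 to 0.69 between pairs of WT libraries, 0.38 to 0.51 between pairs of cKO libraries and 0.41 to 0.66 between a WT and a cKO library. These values describe genes that share a library and its depth, and the 3 ranges overlapped.

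The elongation factors Eef1b2, Eef1g and Eef2 had the 3 highest mean levels, and of these only Eef1g was steady. The highest library was 67.6-fold above the lowest for Eef1b2 and 25.6-fold for Eef2. Eef1b2 (chromosome 1, 63176825 to 63180486), which encodes the catalytic exchange subunit for eEF1A, was at 1386, 656 and 21.7 FPKM in WT 1 to 3 and at 1470, 426 and 479 in cKO 1 to 3. Only WT 3 fell far below the rest, and the groups overlapped. Eef1g (chromosome 19, 8967041 to 8978479), a structural subunit of the same complex, was at 153, 261 and 282 in WT and at 347, 323 and 152 in cKO. Its highest library was 2.28-fold above its lowest. Among 1344 tested genes with a mean above FPKM 10 on the log2 scale, 4 including Eef1g had a range no larger than its 1.18 log2 units, and the median range was 6.29. Of its 50-base words in the annotated transcripts, 64.3% also occur in 5 other genes, all pseudogenes, and the sources used here do not say how reads were shared among these copies.

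Eef2 (chromosome 10, 81176631 to 81182498), the translocase, was at 189, 119 and 147 FPKM in WT and at 568, 22.2 and 173 in cKO. The 3 WT values lay inside the range of the cKO values. Eef2k, the kinase that inactivates eEF2, reached 10 only in cKO 3, at 18.6 FPKM. Eef2kmt, an eEF2 lysine methyltransferase, was at 0.301, 9.55 and 1.66 in WT and at 0.13, 0 and 0.079 in cKO. Its groups did not overlap, but it did not pass the filter for testing, and it is named here after its values were seen. Its counts were 18, 1852 and 25 in WT and 14, 0 and 17 in cKO, so a high-band count was found in WT 2 alone.

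Both genes for eEF1A itself were near the floor. Eef1a1, in textbooks one of the most abundant mRNAs of most cells, had counts of 0, 10 and 0 in WT and 53, 4 and 20 in cKO, and Eef1a2, the paralogue of muscle and neurons, was at 1.79 FPKM or less in every library. These low values stand beside the sequence of Eef1a1, where 53.6% of 50-base words also occur in 21 other genes, 18 of them pseudogenes. The part of shared sequence in its low counts was not tested. The 15 members with more than 20% shared words had a median level of 2.19 on the log2(FPKM + 1) scale, and the 21 with none had 2.83. The 27 in between had 2.95.

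The other eEF1 genes were detected in some libraries and not in others. Eef1d, an exchange subunit, was at 1.17, 42 and 3.35 FPKM in WT and at 8.76, 48.6 and 26.1 in cKO. Eef1e1, an auxiliary protein of the aminoacyl-tRNA synthetase complex, was at 1.02, 36.7 and 1.52 in WT and at 356, 122 and 0.0817 in cKO. Both had 1 high WT library, and Eef1e1 had its lowest value in cKO 3. The eEF1A methyltransferase genes followed the same on and off course, with Eef1akmt4 at 64.2 in WT 2 and at most 0.324 elsewhere, and Eef1aknmt at 16.3 in cKO 1 and at most 0.0705 elsewhere.

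Start-site selection factors were read mainly in WT 2 and cKO. Eif1 (chromosome 11, 100319885 to 100322096), which guards against initiation at wrong codons, was at 3.28, 17.7 and 7.22 FPKM in WT and at 85.6, 20.6 and 22.6 in cKO. Every cKO value was above every WT value, by a narrow margin between WT 2 and cKO 2. Of its 50-base words, 21.4% also occur in 18 other genes, 17 of them pseudogenes. Its paralogue Eif1b was at 2.62, 281 and 7.33 in WT and at 808, 73.2 and 169 in cKO, and WT 2 lay inside the cKO range. The eIF1A genes Eif1a and Eif1ax were at 60.5 and 55.9 in WT 2, and each fell under 3 in at least 1 cKO library. Eif1ad, grouped here by its gene symbol and not as a start-site selection factor, was at 37.1 in WT 2 and at 2.67 or less in the other 5 libraries.

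The 3 subunits of eIF2 were read in different libraries. Eif2s2, the beta subunit, was at 12.6, 115 and 1.89 FPKM in WT and at 144, 57.5 and 87.8 in cKO. Eif2s1, the alpha subunit whose phosphorylation lowers initiation, was at 0.581, 32.1 and 1.06 in WT and at 0.308, 163 and 73.6 in cKO. Eif2s3x, the X-linked gamma subunit, reached 10 in WT 2 and cKO 3 alone. In cKO 1, then, the beta subunit was read at 144 and the other subunits below 1. Eif2a, an alternative carrier of initiator tRNA, was at 0.737, 3.95 and 1.06 in WT and at 0.116, 29.8 and 27.1 in cKO. The 5 subunits of eIF2B, the exchange factor of eIF2, gave no library with all of them at FPKM 10 or more. The number at that level was 0, 2 and 0 in WT and 0, 3 and 3 in cKO. Eif2b5, its catalytic subunit, was at 27.7 in cKO 3 and at 2.23 or less elsewhere.

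For eIF3, the large scaffold on the small ribosomal subunit, 1, 9 and 1 of 13 genes were at FPKM 10 or more in WT and 7, 8 and 9 in cKO. Eif3l (chromosome 15, 79075179 to 79094405) was at 1.52, 29.3 and 5.13 in WT and at 49.8, 72 and 61.4 in cKO. Every cKO value exceeded every WT value. Eif3k, its partner subunit in the complex, was at 2.88, 243 and 8.12 in WT and at 379, 181 and 65.8 in cKO, with WT 2 inside the cKO range. Eif3f was at 4.28, 123 and 7.35 in WT and at 302, 45.4 and 273 in cKO. Eif3c, a core subunit, was at 7.32, 139 and 9.33 in WT and at 178, 15.9 and 94.5 in cKO. In both of these genes WT 2 exceeded cKO 2.

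Other eIF3 subunits had a different high library. Eif3m was at 1.49, 268 and 358 FPKM in WT and at 0.379, 71.4 and 131 in cKO, so that it was high in WT 3, where only 5 members reached 10. Eif3a, the largest subunit, was at 38.5, 16.4 and 2.57 in WT and at 1.44, 17 and 36.4 in cKO. Eif3b, which binds it in the core, was at 6.84, 0.885 and 6.61 in WT and at 202, 0.381 and 0.274 in cKO. The core pair thus differed in cKO 1, where Eif3b was at its highest and Eif3a at its lowest. Eif3g was at 0.925, 347 and 5.54 in WT and at 55.5, 111 and 0.317 in cKO. Eif3e stayed at 0.213 or less in all libraries, and 22% of its 50-base words also occur in 4 pseudogenes.

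Cap-binding and scaffold genes ranged from Eif4e2, under 1 FPKM throughout, to Eif4g2, at 10 or more in 4 libraries. Eif4e, the cap-binding protein, was at 0.232, 11.7 and 2.2 FPKM in WT and at 0.376, 0.109 and 0.653 in cKO. Its relative Eif4e2 was at 0.732 or less throughout. Eif4e3, another member of the cap-binding family, was at 0.184, 0.592 and 1.2 in WT and at 0.189, 50.3 and 18.2 in cKO. cKO 2 and cKO 3 were high and cKO 1 lay within the WT range. Eif4g1 (chromosome 16, 20668313 to 20692884), the scaffold that joins eIF4E, the helicase and eIF3, was at 2.16, 5.22 and 4.99 in WT and at 0.866, 0.231 and 0.872 in cKO. Every cKO value was below every WT value. Its counts were 343, 2761 and 203 in WT and 239, 137 and 498 in cKO, which overlap, so the groups separate in FPKM, after division by library totals, and not in counts. The paralogue Eif4g3 had counts of 106, 52 and 107 in WT and 95, 59 and 49 in cKO, all in the low band. Eif4g2, which lacks the eIF4E-binding region, was higher than both, at 3.8, 30.5 and 8.92 in WT and 24.6, 28.1 and 77.6 in cKO.

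The helicase paralogues peaked in different libraries. Eif4a1 was at 0.931, 11.9 and 2.38 FPKM in WT and at 41.5, 5.41 and 8.7 in cKO. Eif4a2 was at 2.8, 46.7 and 6.51 in WT and at 1.27, 161 and 55 in cKO. Eif4a3, the helicase of the exon junction complex, was at 42.7, 35.8 and 5.25 in WT and at 381, 0.238 and 31.4 in cKO. Eif4a1 and Eif4a3 were highest in cKO 1, where Eif4a2 was lowest, and cKO 2 was the highest library of Eif4a2 and the lowest of Eif4a3. Of the 50-base words of Eif4a1, 65.3% also occur in 8 pseudogenes, so its reads are uncertain. Eif4a3l1 and Eif4a3l2, which resemble Eif4a3, did not reach 10 in any library. Eif4h, a helper of the helicase, was at 1.81, 21.5 and 4.12 in WT and at 129, 21 and 34.2 in cKO, and WT 2 and cKO 2 were alike.

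Of the eIF4E inhibitors, Eif4ebp1 was the most abundant, at 1.07, 185 and 3.43 FPKM in WT and at 295, 152 and 140 in cKO. Again WT 2 lay among the cKO libraries and WT 1 and WT 3 below them. Eif4ebp2 was at 1.21, 0.144 and 1.37 in WT and at 1.24, 0.118 and 16.5 in cKO.

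Among the late initiation factors, Eif5b (chromosome 1, 37998010 to 38055579), the GTPase that joins the ribosomal subunits, was at 0.548, 2.72 and 0.987 FPKM in WT and at 6.9, 42.3 and 53.2 in cKO. All cKO values were above all WT values. Its counts were 116, 1924 and 53 in WT and 2519, 32879 and 40341 in cKO, which also do not overlap. Eif5a (chromosome 11, 69916714 to 69921958), the hypusine-bearing factor that relieves stalled ribosomes, was at 110, 159 and 32.9 in WT and at 689, 133 and 23.8 in cKO. The lowest and the highest library were both cKO. Its paralogue Eif5a2 was at 0.137 or less. Eif5, the activator of GTP hydrolysis by eIF2, was at 1.07, 19.7 and 5.59 in WT and at 0.433, 0.141 and 15.9 in cKO. Eif6, which keeps the ribosomal subunits apart, was at 72.1 in cKO 2 and at 7.77 or less elsewhere.

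**Figure D3:**
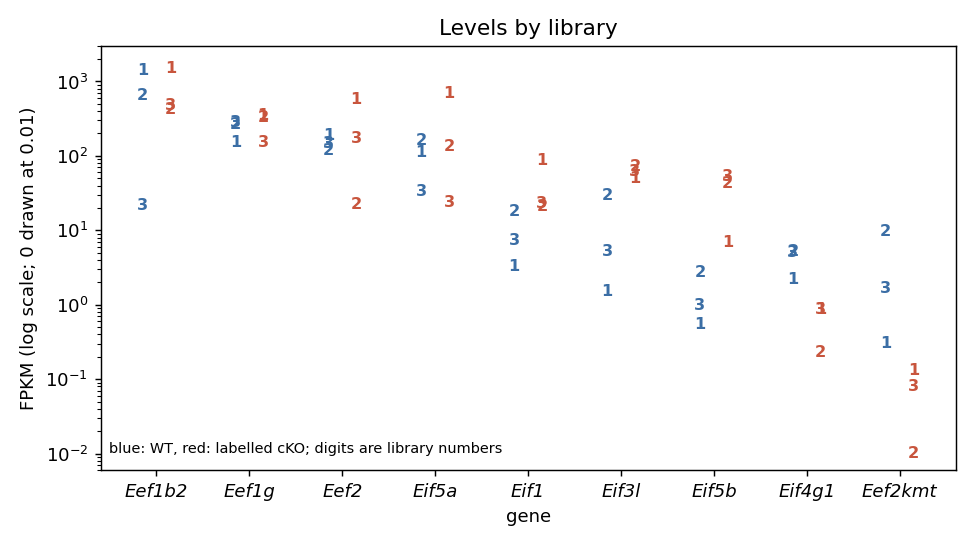
FPKM on a log axis of 9 translation factor genes in each library, WT in blue and labelled cKO in red, each digit being the library number and 0 drawn at 0.01. Eef1b2, Eef1g, Eef2 and Eif5a overlap between genotypes, Eif1, Eif3l and Eif5b are higher in every cKO library, and Eif4g1 and Eef2kmt are lower in every cKO library.

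No translation factor passed the test for a genotype difference. The test was edgeR's quasi-likelihood test on deposited counts with Benjamini-Hochberg adjustment over 4173 genes that had FPKM of at least 1 in at least 3 libraries. It called 0 of 45 tested members and 0 of all genes tested (0%), while an unadjusted p under 0.05 was reached by 1 member and by 287 genes (6.88%). Limma on log2(FPKM + 1) also called 0 (0%), with no member at an unadjusted p under 0.05. The remaining 18 members did not pass the filter and were not tested. Adjusted p-values of members ran from 0.692 to 0.996, and standard errors from 1.55 to 2.75 log2 units, so differences of several fold were not detectable with this spread. The biological coefficient of variation was 1.49.

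DESeq2 gave another count from the same table, 298 genes called (7.14%). Its calls held 1 member, Eif5b, at 3.80 ± 1.17 on the log2 scale (cKO minus WT ± SE, DESeq2 adjusted p = 0.0232), and 9 of the 45 members had no adjusted p. In edgeR the Eif5b difference was 5.00 ± 2.74 (adjusted p = 0.706). Eif5b was higher in 3 of 3 cKO libraries than in any WT library, and the difference is a call in 1 of the 3 tools.

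Fitted differences were mostly positive, as they were over all genes. Of the 45 tested members 40 had a positive log2 fold change (88.9%), beside 67.9% of all tested genes, and the median was 2.01 beside 1.10. With median-of-ratios scaling in place of TMM, the median over all tested genes moved from 1.10 to 0.52, the members' median to 1.30, and 35 members were positive. The members' median was 0.49 without cKO 1 (0.10 over all genes) and 3.82 without WT 2 (2.93 over all genes). Without WT 1 and WT 3 it was 0.80 beside 0.41, with 30 members positive. With no filter the medians were 2.74 over the members and 0.17 over all genes, and with counts of at least 10 in at least 3 libraries 1.75 and -0.14. The distance between the 2 medians therefore varied with the filter and, less, with the libraries compared. It was given no test, since the genes share libraries.

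Of the cell type markers, the erythroid sum separated the labels. All 12 erythroid markers were in the table, and 6 in each WT library and 5 or 6 in each cKO library stood at FPKM 10 or more. Their summed FPKM was 10151 to 22805 in WT and 2053 to 3016 in cKO, without overlap. Most of each sum came from the globin genes. Outside them, Alas2 did not overlap either, at 40.7, 21.8 and 102 in WT and 15.3, 5.81 and 4.98 in cKO. Car2 overlapped at 240, 621 and 878 in WT and 199, 416 and 372 in cKO, and no test was made. The erythroid regulator Klf1 was at 0 in WT 2, WT 3 and cKO 3 and below 1 elsewhere. The 14 granulocyte and monocyte markers summed to 830 to 29896 in WT and 893 to 38918 in cKO, which overlap. Their part in the values of the translation factors, and that of depth, was not tested beyond the fits given.

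The members with the smallest unadjusted p among positive differences were Eif4e3, Eif5b, Eef1e1, Eif3b, Eif2b5 and Eif2a. Eif4e3 had 5.61 ± 2.75 (edgeR, unadjusted p = 0.0412, adjusted p = 0.692) although only 2 of 3 cKO libraries were above WT. The fitted values were 4.16 for Eef1e1, 4.15 for Eif3b, 3.72 for Eif2a and 3.19 for Eif2b5, and in Eif3b and Eif2b5 a single cKO library was above all WT libraries. Negative differences were fitted for Eif1ad at -3.36, Eif4g1 at -2.25, Eif3m at -1.15, Eif3g at -0.51 and Eif5 at -0.31. Eif1ad and Eif5 had a single high WT library, WT 2.

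Groups that did not overlap in FPKM were found for 4 tested members, a share near that of all tested genes. Eif1, Eif3l and Eif5b were higher in all cKO libraries, 3 of 45 tested members, beside 6.37% of tested genes. Eif4g1 was lower, 1 of 45, beside 5.18%. It reached FPKM 1 in the 3 WT libraries alone, and so passed the filter only through WT. Any gene that enters in this way is lower in every cKO library, so the separation of Eif4g1 is no separate result. The 5.18% holds such genes too. None of the 4 members passed the edgeR test, where Eif1 had 2.67 ± 2.55 (adjusted p = 0.752), Eif3l 2.84 ± 2.54 (adjusted p = 0.747) and Eif4g1 -2.25 ± 2.06 (adjusted p = 0.747). Without cKO 1 the value for Eif1 was 0.07. An exact permutation test of 3 against 3 libraries cannot go below p = 0.1. On CPM, counts scaled by library total and TMM factor, 6 tested members were higher without overlap, beside 9.01% of tested genes, and 1 lower, beside 4.55%.

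**Figure D4:**
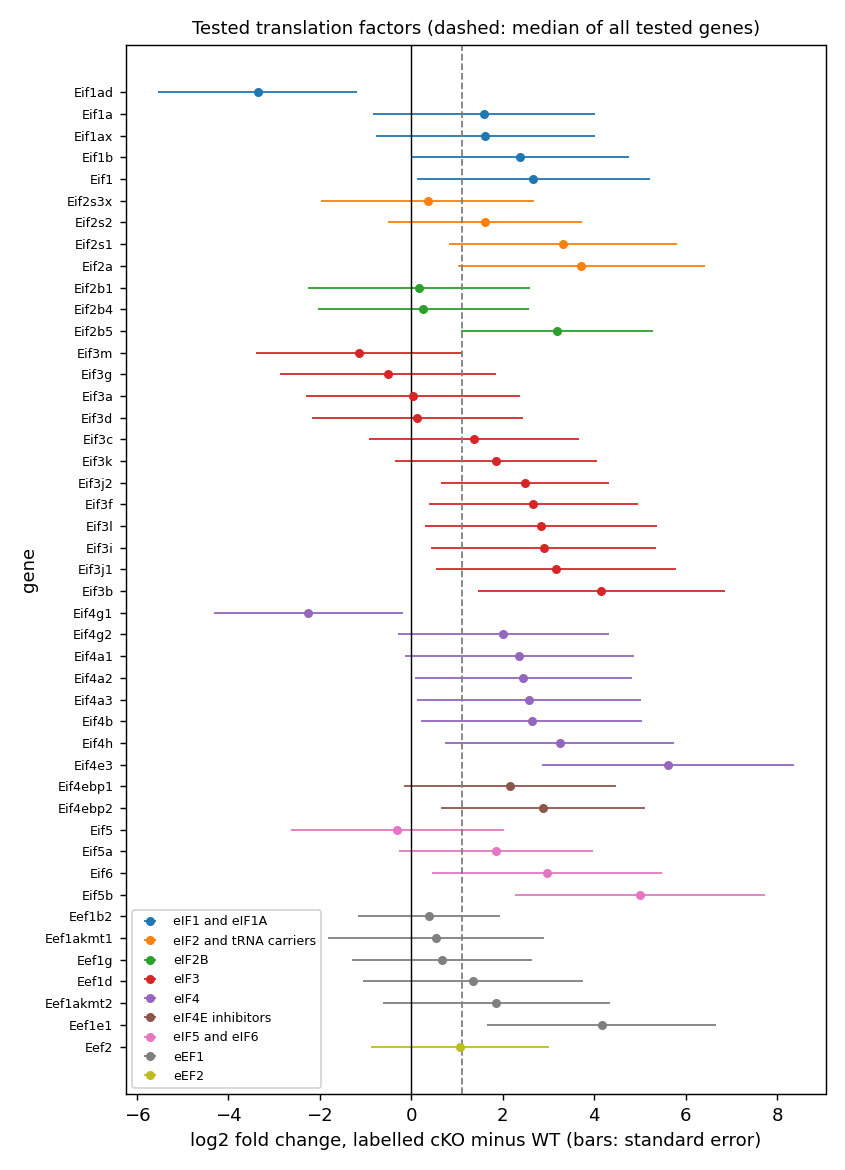
Log2 fold change, labelled cKO minus WT, of the 45 tested translation factor genes from edgeR with bars of 1 standard error, coloured by role, with a dashed line at the median of all tested genes (1.10). Of these, 40 lie above 0 and 5 below, and no adjusted p is under 0.692.

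By role, the median log2 fold change was 1.62 for the 5 tested genes of eIF1 and eIF1A and 2.47 for 4 of eIF2 and its alternatives. It was 0.26 for 3 of eIF2B, 2.17 for 12 of eIF3 and 2.51 for 8 of eIF4. The eIF4E inhibitors had 2.52 over 2 genes, eIF5 and eIF6 2.40 over 4, and eEF1 1.01 over 6, while Eef2, the one tested gene of its group, had 1.06 ± 1.95. The eEF1, eEF2 and eIF2B medians lay below the 1.10 of all tested genes and the other 6 above it, and no role had a called gene.

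Translation genes outside the eIF and eEF names were also read, from lists of 63 genes of which 60 were in the table and 27 were tested. They cover eIF2 kinases and the stress response, control by mTORC1, poly(A) binding and re-initiation, termination, factor modification, and mitochondrial and selenocysteine factors. EdgeR called 0 of the 27, with 2 at an unadjusted p under 0.05, and limma called none. DESeq2 called 4 of the 27, beside 7.14% of all tested genes, namely Denr, Eefsec, Ppp1r15a and Tufm. Of the 27 edgeR values 13 were positive, and the median was -0.15. In FPKM, 3 of the 27 were lower in every cKO library, beside 5.18% of all tested genes, and 2 were higher, beside 6.37%. The genes given below were named for the smallest p in their lists, so their separation by label is no separate result. Of the 3 lower genes, Eefsec and Tufm reached FPKM 1 in the 3 WT libraries alone. They passed the filter only through WT, and so were bound to be lower in every cKO library. Eefsec, which delivers selenocysteine tRNA, was at 4.9, 6.51 and 1.34 FPKM in WT and at 0.0911, 0.0502 and 0.00863 in cKO, and its fitted difference was -5.99 ± 2.03 (edgeR adjusted p = 0.692). Tufm, the mitochondrial elongation factor Tu, was at 1.07, 29.5 and 3.33 in WT and at 0.406, 0.0919 and 0.296 in cKO, with -4.88 ± 2.12 (adjusted p = 0.692). Both were lower in every cKO library, as was Pabpc1, the cytoplasmic poly(A)-binding protein, at 2.15, 1.67 and 106 in WT and 1.05, 0.474 and 1.15 in cKO. The counts of Eefsec did not overlap either, but those of Tufm (50, 4535 and 40 in WT, 34, 16 and 50 in cKO) and Pabpc1 (304, 794 and 3792 in WT, 260, 248 and 589 in cKO) did.

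Higher in every cKO library were Denr and Ppp1r15a. Denr, a factor of re-initiation, was at 0.437, 21.4 and 1.06 FPKM in WT and at 122, 24.9 and 80.8 in cKO, with 3.80 ± 2.51 (edgeR adjusted p = 0.734). Ppp1r15a, which encodes GADD34, the subunit that directs dephosphorylation of eIF2 alpha, was at 2.1, 36.6 and 3.1 in WT and at 105, 245 and 51.6 in cKO, with 3.78 ± 2.54 (adjusted p = 0.734). Both had WT 2 nearest to the cKO values.

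The other genes named by smallest p had groups that overlapped. Ddit3, a transcription factor of the stress response, was at 38.8 FPKM in cKO 2 and at 2.37 or less elsewhere. Mknk2, a kinase of eIF4E, was at 1.15, 8.5 and 3.31 in WT and at 0.602, 1.68 and 0.714 in cKO, and Pdcd4, an inhibitor of the eIF4A helicase, at 9.1, 31.9 and 0.752 in WT and 5.02, 4.11 and 0.109 in cKO. Gspt1, the release factor eRF3, was at 11.1 and 7.28 in cKO 1 and cKO 2 and at 1.65 or less elsewhere. Abce1, which recycles ribosomes, was at 20.7 in WT 2 and at 90.6, 1.95 and 40.2 in cKO. Dhps, the first enzyme of hypusine formation on eIF5A, reached 10 in WT 2 and cKO 2, and Dph3, of diphthamide formation on eEF2, in WT 2 and cKO 3.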

How the data were processed

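RNA from 6 samples of 100 sorted mouse bone marrow HSCs was measured, 3 WT and 3 labelled Piezo1 cKO. Per the labels' protocols, cDNA was primed with oligo(dT), extended by template switching and amplified. No molecular identifier was used, and counts therefore do not stand for molecules. The submitters' processing notes name HISAT2 2.2.1, StringTie 2.1.6, cutadapt 1.9, edgeR and DESeq2, without their order, and the build GRCm39. The deposited gene coordinates matched GENCODE M21 on GRCm38 exactly, at start and end, for 17547 of 19953 genes found by identifier (87.9%) and for 56 of the 63 members (88.9%). They are taken as GRCm38 despite the build in the notes. The sources used here give neither the annotation release nor how reads that match several genes were counted.

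For each gene the authors deposited an unscaled count and an FPKM value, which they scaled for transcript length and depth. Total counts per library were 3907259 to 72116120. From these, edgeR 4.0.16 (R 4.3.3) gave the main test, with TMM scaling and genotype as the only term over all 6 libraries. Genes entered with FPKM of at least 1 in at least 3 libraries, and p-values were adjusted over all 4173 such genes at 0.05. The standard error is the log2 fold change divided by the square root of F. Alternatives were limma 3.58.1 on log2(FPKM + 1) and log2(FPKM + 0.1), DESeq2 1.42.0, other scaling and filters, a replicate block, a total-count term and libraries left out. Words of 50 bases were compared between GENCODE M21 transcripts of different genes.

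The members and lists were chosen with earlier results of these data known. Named members were the 12 with the highest mean log2(FPKM + 1), up to 6 tested members in each direction with the smallest p, tested members whose groups do not overlap, and the paralogue groups. From each other list up to 2 genes with the smallest p were named. The other members were added to show their role.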

Additional observations from a re-analysis of the deposited data

How the results depend on the processing

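Member calls were 0 under every edgeR and limma alternative tried, and DESeq2 called 1. Genes called over all genes tested numbered 298 of 4173 in DESeq2 and 163 of 19978 with no filter. They numbered 4 of 10144 with a filter on counts of at least 10 in at least 3 libraries. Without WT replicates 1 and 3 together 1 WT library is left, and that library is assumed to vary like the others. DESeq2 called 4 of 27 other translation genes, beside 7.14% of all tested genes. Members at an unadjusted p under 0.05 numbered 7 of 45 in DESeq2, 8 of 63 with no filter and 3 of 58 with the count filter. They numbered 0 in both limma fits, with the replicate block, without WT 1 and WT 3, with total count as a covariate, and with counts of at least 1000 in at least 2 libraries, a filter chosen after seeing the data. Leaving out 1 library gave 0 to 9. The share of all tested genes at an unadjusted p under 0.05 was counted only in the main edgeR fit (6.88%). The numbers from the other fits are therefore no result about the members. In CPM 7 members did not overlap, 6 higher and 1 lower, beside 9.01% and 4.55% of tested genes. The median over members ran from 0.49 to 3.82 when 1 library was left out.

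Of 268 values of 17 member fold changes, 242 kept the sign of the main result, 26 had the other sign and 1 passed the threshold, and 8 members kept their sign throughout. Values with the other sign were, in limma with a pseudocount of 1, -0.18 for Eef2 and 0.31 for Eif3g, and with 0.1, -0.20 for Eef2, -0.11 for Eif3b, 0.12 for Eif3g and -0.32 for Piezo1. DESeq2 and median-of-ratios scaling each gave -0.37 for Eef1b2, -0.30 for Eef1g, 0.07 for Eif3g and -0.16 for Piezo1. No filter gave 0.32 for Eif3g, 0.25 for Eif3m and 0.71 for Eif5. Piezo1 was -0.08 without WT 1 and WT 3. Leaving out 1 library gave ranges of -1.52 to 4.60 for Eif3g, -4.33 to 1.02 for Eif5, -1.73 to 1.76 for Eef1b2 and -1.54 to 0.99 for Eef1g. The ranges were -2.26 to 1.60 for Eef2, -5.74 to 4.78 for Eif3b, -1.36 to 2.40 for Eif5a, -2.69 to 3.77 for Eif2b5 and -1.65 to 2.06 for Piezo1. The cause of these changes was not tested.

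Same-numbered libraries had correlations of deviations from their group means of 0.126, 0.151 and -0.155. With 3 libraries per group that also differ in depth, these values cannot decide whether equal numbers pair the samples, and the labels do not say. The replicate block gave 0 called members, -0.16 for Piezo1 and -0.37 for Eif3b, and changed no call.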
